A study of Mus musculus with 20 samples.

Results

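The replication-dependent histone genes encode the H1, H2a, H2b, H3 and H4 proteins that package newly made DNA. They were chosen by name, as the protein-coding genes of the GENCODE M21 annotation whose symbol begins with Hist1h, Hist2h, Hist3h or Hist4h. Of the 30265 genes in the count tables, 64 were members: 6 H1, 18 H2a, 15 H2b, 12 H3 and 13 H4 genes. 3 further genes with such a name, all H2b, were not analysed here. 52 of the members lay on chromosome 13, 9 on chromosome 3, 2 on chromosome 11 and 1 on chromosome 6.

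The study raised or lowered the DNA-binding factor Klf5. In the first experiment, mouse embryonic stem cells (ESCs, pluripotent cells of the blastocyst) of a C57BL/6J line overexpressed Klf5 (2 libraries) or green fluorescent protein, GFP (2 libraries); both groups grew with LIF on irradiated fibroblast feeders. In the second, single E4.5 embryos, at the late blastocyst stage, had been injected with an siRNA against Klf5 (6 embryos) or a scramble siRNA (10 embryos) and cultured in KSOM medium; their labelled strain is C57BL/5J. Polyadenylated RNA was the stated molecule in all 20 libraries, prepared with TruSeq reagents from ESCs and with the SMARTseq-V4 kit from embryos, so levels are set side by side between experiments without a test.

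Most messenger RNAs end in a poly(A) tail. Replication-dependent histone messages are the known exception: they are made in S phase, when DNA is copied, and end just after a short stem-loop that SLBP binds, without a tail. Some of their genes can also give a longer, polyadenylated transcript when a poly(A) signal downstream of the stem-loop is used, which is known in differentiating cells. In libraries built on poly(A), what is read of these genes is therefore not their total message, and capture of the untailed form is uneven between members.

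The sequences below show how message ends differ between members described later: stem-loops (capitals, with the 14 bases before them), first of members with high levels in embryos and then of members that fell in ESCs, and AATAAA poly(A) signals (capitals).
Hist1h2ap stem-loop, chr13:21833029-21833058, minus strand: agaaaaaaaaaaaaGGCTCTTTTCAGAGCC
Hist1h2ae stem-loop, chr13:23570668-23570697, minus strand: gtaaaaaaaacaaaGGCTCTTTTCAGAGCC
Hist1h4d stem-loop, chr13:23581936-23581965, plus strand: acccaaaaaccaaaGGCCCTTTTCAGGGCC
Hist1h1c stem-loop, chr13:23739498-23739527, plus strand: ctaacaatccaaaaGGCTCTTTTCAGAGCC
Hist1h1e stem-loop, chr13:23621782-23621811, minus strand: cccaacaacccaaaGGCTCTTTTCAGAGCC
Hist1h4m stem-loop, chr13:21812115-21812144, plus strand: ctttctcaactaaaGGCCCTTTTCAGGGCC
Hist1h1c poly(A) signal, chr13:23740330-23740359, plus strand: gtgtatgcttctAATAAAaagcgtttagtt
Hist1h2ae poly(A) signal, chr13:23570527-23570556, minus strand: cccagcttctccAATAAAtgggtcaatttt
Hist3h2a poly(A) signal, chr11:58956785-58956814, plus strand: aggtatatgcccAATAAAataagagtacgt
All were read from the GENCODE M21 transcripts (GRCm38) and written in the direction of the message.

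The stem-loop was searched on the sense strand only, as GG, 3 bases, TTTT, any base, A, 3 bases and CC, with the arms of the stem able to pair. It was found in the annotated transcript of 42 of 64 members (65.6%), against 11 of 21382 other protein-coding genes (0.0514%). The form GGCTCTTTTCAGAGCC was held by 24 members of the H1, H2a, H2b and H3 classes, and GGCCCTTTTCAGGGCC by 7 members, all H4. AATAAA lay within the last 40 bases of the annotated transcript in 15 of 64 members (23.4%), against 68.8% of the other genes. Hist1h2bc, an H2b gene, had neither feature in its annotated transcript. The count of A among the 14 bases before the stem-loop was highest in 3 members. Hist1h2ap and Hist1h2ao held 13 and Hist1h2ae 11, while the 39 others with a stem-loop held between 3 and 9. Across whole transcripts, a run of 12 or more A lay in 3 of 64 members (4.69%), against 12.8% of the other genes.

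Many members are near copies of each other, which limits how reads can be divided among them. Of the 64 members, 39 had fewer than 50% of their 31-base words to themselves, the word length that kallisto uses by default, and 4 had none. Hist1h2ap had 6.64% of its own and shared 93.4% with Hist1h2ao, Hist1h4m 8.33% and Hist1h4n 12.5%, so values of these genes are uncertain between the copies. Hist1h1c (88.6%), Hist1h4d (85.3%), Hist1h4j (70.6%), Hist3h2a (67.9%), Hist1h2bc (66.6%), Hist1h1e (65.3%) and Hist1h2ae (52.1%) held more than 50% of their own.

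Libraries held 26.8 to 37.5 counts (in units of 1e6) in ESCs and 14.7 to 24.9 in embryos. Levels are CPM, counts per 1e6 scaled by the TMM method within each experiment. Klf5 itself had 946 and 887 CPM in Klf5 ESCs, against 79.6 and 70.8 CPM in GFP ESCs (12.1-fold higher, edgeR adjusted p = 0.000323). In embryos it ranged from 79.0 to 512 CPM (median 154) with Klf5 siRNA, against 378 to 630 CPM (median 484) with scramble siRNA (2.10-fold lower, edgeR adjusted p = 0.0273). The highest Klf5 siRNA value, 512 CPM, was that of the library labelled Klf5 siRNA 1, within the scramble range, so the calls are also given without it. Mitochondrial genes took 2.45 to 10.3% of counts in Klf5 siRNA embryos and 4.34 to 18.5% in scramble embryos. Nothing states whether the ESC libraries came from different cultures; their p-values therefore cover the spread between libraries only, which may be technical.

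Which histone genes were read differed between the experiments. In the 4 ESC libraries, H2b took 26.8 to 30.9% of all member counts, H1 21.2 to 28.7%, H2a 19.6 to 21.6%, H4 12.98 to 15.2% and H3 9.64 to 13.7%. In the 16 embryos, H2a took 53.8 to 94.9% (median 91.5%), and H1 only 0.423 to 1.90%. A single gene, Hist1h2ap, made up 42.8 to 92.2% of embryo member counts (median 85.4%), against 1.46 to 2.26% in ESCs. Members with AATAAA near their annotated end took 31.3 to 41.9% of member counts in ESCs and 2.31 to 10.5% in embryos. Hist1h2ap has no such AATAAA and fills most of the embryo total. The lower embryo share therefore does not show how members with AATAAA compare with the remaining members.

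Levels per length, in CPM per kilobase of mean annotated transcript, ordered the members differently. In ESCs the linker histone gene Hist1h1c was highest, at 61.2 on average (36.7 to 88.9 over 4 libraries), followed by Hist1h2bc at 48.6 (37.2 to 54.7), and the ranges overlap. The order differed by group. Hist1h1c averaged 80.8 and Hist1h2bc 53.4 in GFP ESCs, but Hist1h1c 41.5 and Hist1h2bc 43.8 in Klf5 ESCs. In embryos Hist1h1c averaged 3.78 (1.35 to 8.75 over 16 libraries) and ranked 23 of 64. Hist1h2ap, a core H2a gene, averaged 3884 in embryos (767 to 7990), the highest there, and 17.6 in ESCs, where it ranked 12. Hist1h2ae, another H2a gene, was second in embryos at 152.9 (28.8 to 344), and ranked 22 in ESCs at 7.79. Hist1h2bc at 84.5 and the H4 gene Hist1h4d at 44.2 followed in embryos; Hist1h4d ranked 34 in ESCs at 3.78. Of the 3 members with more than 9 A before the stem-loop, Hist1h2ap and Hist1h2ae were thus highest in embryos. The third, Hist1h2ao, averaged 3.15 and ranked 26, and its reads can hardly be told from those of Hist1h2ap. Hist1h2ac, with the longest run of A anywhere in its annotated transcript (15 bases), averaged 0.423 in embryos and ranked 59. A link between such stretches and level was not tested.

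The leading members of each class were mostly different genes in ESCs and in embryos. In ESCs the highest H2a genes were Hist1h2ag at 30.8 CPM per kilobase and Hist2h2aa1 at 20.6, the highest H3 genes Hist1h3c at 28.2 and Hist1h3h at 16.8, and the highest H4 genes Hist1h4i at 25.3 and Hist1h4h at 19.7. Hist1h2bk at 31.3 was the second H2b gene and Hist1h1a at 5.19 the second H1 gene. In embryos Hist1h2bj (18.7) followed in H2b, Hist2h3b (7.28) and Hist1h3g (6.36) led H3, Hist1h4i (15.9) followed in H4, and Hist1h1b (7.499) led H1. Hist2h2aa1 and Hist2h3b had 0% of their 31-base words to themselves and Hist1h3h 5.77%. Their ranks are therefore uncertain between the genes that share those words. Low members were common: 13 members averaged below 1 CPM per kilobase in ESCs and 15 in embryos, and 30 of 64 had a count in all 16 embryos.

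**Figure D1:**
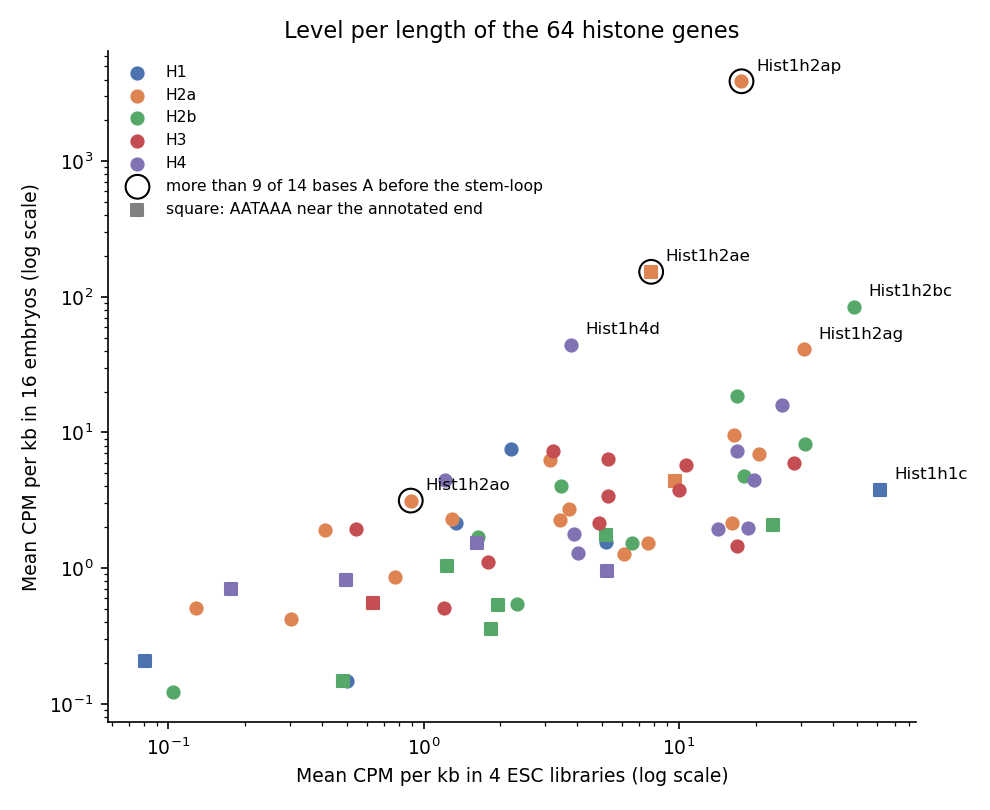
Mean level per length of the 64 histone genes in 4 ESC libraries (horizontal) and in 16 embryos (vertical), in TMM-scaled CPM per kilobase on log axes, coloured by class. Hist1h2ap stands highest in embryos at 3884 against 17.6 in ESCs, and Hist1h1c highest in ESCs at 61.2 against 3.78 in embryos; squares mark AATAAA near the annotated end and rings the 3 members with more than 9 A among the 14 bases before the stem-loop.

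In Klf5-overexpressing ESCs the summed level of these genes was lower than in GFP ESCs, and most members had folds below 0. Summed over all members, Klf5 ESCs had 292 and 379 CPM and GFP ESCs 538 and 524 CPM, with no overlap. The linker class stood at 63.6 and 80.2 CPM in Klf5 ESCs, against 155 and 131 CPM in GFP ESCs. H2a summed to 60.5 and 82.0 against 105 and 113 CPM, H2b to 90.3 and 117 against 144 and 141, H3 to 40.2 and 47.5 against 51.9 and 65.9, and H4 to 38.0 and 52.4 against 82.0 and 73.6, each with Klf5 ESCs given before GFP ESCs. Klf5 ESCs were below GFP ESCs in every class. These sums are descriptions and carry no test.

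**Figure D2:**
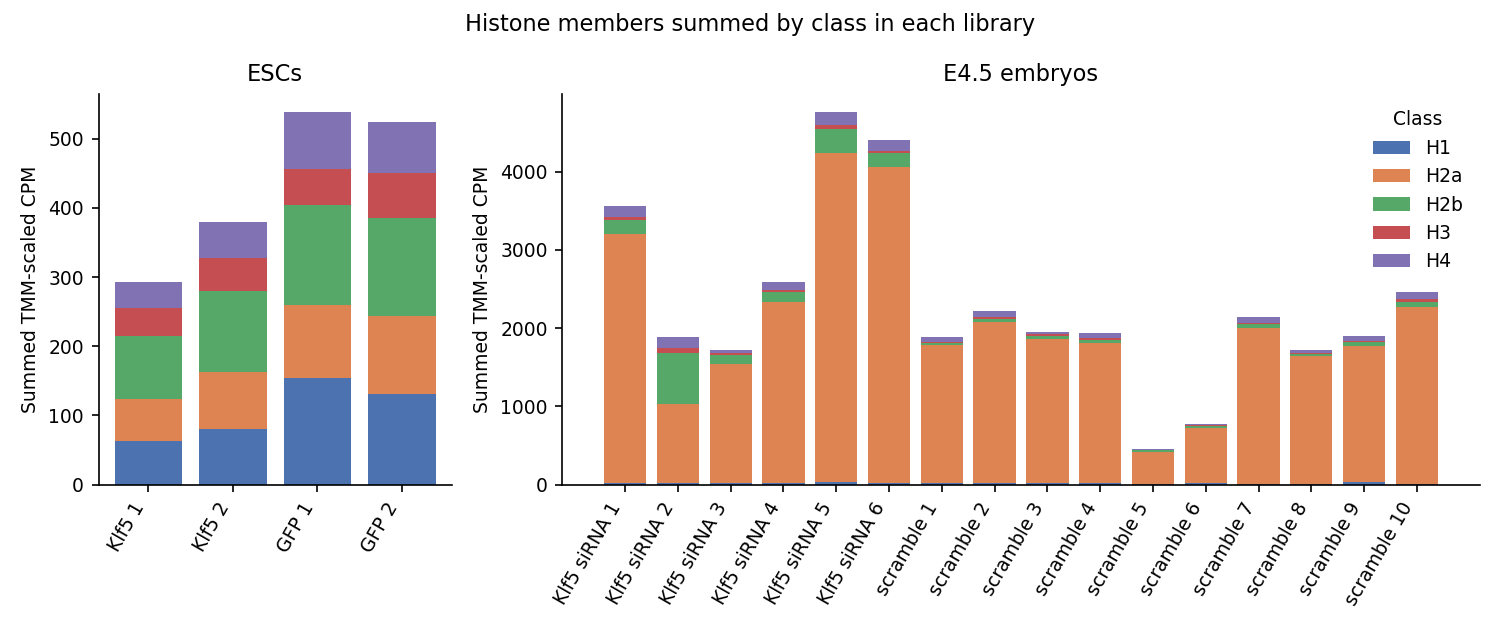
Summed TMM-scaled CPM of the histone members by class in each library, ESCs left and embryos right, on separate scales. Klf5 ESCs reach 292 and 379 CPM against 538 and 524 in GFP ESCs; H2a fills most of every embryo bar, and scramble embryos 5 and 6 are lowest at 460 and 775 CPM.

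Gene by gene, 61 members passed the filter on low counts in ESCs; Hist1h1t, Hist2h2ab and Hist1h2ba did not. 5 fell and 0 rose at an adjusted p below 0.05 (edgeR quasi-likelihood test, Benjamini-Hochberg over all 15968 genes tested), where 1.11% of all tested genes fell and 1.67% rose. At an unadjusted p below 0.05, 26 of 61 members were lower, where 10.8% of all tested genes were, and 0 were higher; DESeq2 and limma voom also called 0 higher. Fitted log2 folds were below 0 for 57 of 61 members, with a median of -0.75, where 50.4% of all tested genes were below 0 and their median was -0.0025. With no filter, 58 of all 64 members were below 0, with a median of -0.73. The 2 Klf5 libraries lay below both GFP libraries in CPM for 43 members, where 26.3% of all tested genes did so.

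The 5 that fell were 2 linker and 3 H4 genes. Hist1h1c, the member with the most counts in ESCs, had 57.2 and 72.4 CPM in Klf5 ESCs, against 139 and 113 CPM in GFP ESCs. The groups did not overlap, and the fitted level fell 1.97-fold (log2 fold -0.97 ± 0.16 SE, edgeR adjusted p = 0.0354). Hist1h1e, another linker gene, had 1.04 and 1.12 CPM in Klf5 ESCs, against 4.41 and 3.82 CPM in GFP ESCs. Both Klf5 libraries were lower, and the fitted level fell 3.83-fold (log2 fold -1.94 ± 0.27 SE, edgeR adjusted p = 0.0295).

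The H4 genes all encode the core histone H4. Hist1h4m had 2.81 and 4.34 CPM in Klf5 ESCs, against 12.4 and 10.5 CPM in GFP ESCs, 3.24-fold lower (edgeR adjusted p = 0.0325). Hist1h4n had 2.32 and 3.35 CPM in Klf5 ESCs, against 9.17 and 9.73 CPM in GFP ESCs, 3.37-fold lower (edgeR adjusted p = 0.0295). These near copies share their reads, so they are not separate evidence. Hist1h4j had 0.628 and 0.562 CPM in Klf5 ESCs, against 1.89 and 1.95 CPM in GFP ESCs, 3.25-fold lower (edgeR adjusted p = 0.0480). All 3 were lower in both Klf5 libraries.

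In H2a, H2b and H3 no member passed. Hist1h2ad had the smallest p in H2a, with 6.69 and 7.17 CPM in Klf5 ESCs and 11.0 and 12.1 CPM in GFP ESCs (log2 fold -0.75 ± 0.18 SE, edgeR adjusted p = 0.0704). Hist3h2ba in H2b had 6.36 and 9.98 CPM in Klf5 ESCs and 23.7 and 17.2 CPM in GFP ESCs (log2 fold -1.34 ± 0.27 SE, edgeR adjusted p = 0.0539). Hist1h3b in H3 had 1.83 and 2.09 CPM in Klf5 ESCs and 4.25 and 4.88 CPM in GFP ESCs (log2 fold -1.23 ± 0.25 SE, edgeR adjusted p = 0.0514). In all 3 genes the groups did not overlap, but the fall did not pass the threshold.

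Other members with a high level in ESCs did not pass. Hist1h2bc had 43.1 and 58.3 CPM in Klf5 ESCs and 63.2 and 60.2 CPM in GFP ESCs (log2 fold -0.30 ± 0.16 SE, edgeR adjusted p = 0.311). Hist1h4i had 11.8 and 19.3 CPM in Klf5 ESCs and 23.8 and 18.7 CPM in GFP ESCs, which overlap. Hist1h3c had 16.0 and 19.1 CPM in Klf5 ESCs and 15.3 and 20.6 CPM in GFP ESCs, and Hist1h2ag 13.5 and 15.3 against 12.5 and 18.5 CPM. For Hist1h3c, Hist1h2ag, Hist1h3h and Hist1h3g the fold's sign depended on the settings. Log2 folds lay between -1.94 and -0.70 in the 5 tested H1 genes (median -1.35), while the medians were -0.68 in H2a, -0.53 in H2b, -0.75 in H3 and -0.84 in H4. Differences between the classes were not tested.

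Single libraries decided the ESC calls. Without GFP replicate 1, 0 members passed in edgeR (25 at an unadjusted p below 0.05), and 0.00% of all tested genes were called lower. Without GFP replicate 2 only Hist1h1c fell, where 0.488% of all tested genes did. Without Klf5 replicate 2, 12 members fell, where 2.64% of all tested genes did. With all libraries DESeq2 called 15 members lower, where it called 4.26% of all genes lower, and limma voom 4, where it called 0.752%. Markers of other cell types differed too, in the main fit where 1.67% of all tested genes rose and 1.11% fell. Of the primitive endoderm markers 3 of 8 rose, with summed levels of 107 to 246 CPM in Klf5 ESCs against 40.3 to 45.0 CPM in GFP ESCs, and of the fibroblast (feeder) markers 1 of 11 tested, with sums of 2435 to 2571 against 2136 to 2248 CPM. 0 of 8 trophectoderm and 0 of 8 epiblast markers passed, at 293 to 645 against 815 to 1718 CPM and 5372 to 5735 against 4466 to 4659 CPM. No marker was at 0 in every ESC library, and their part in the result was not tested. In such bulk samples fewer cells of a type and less RNA per cell cannot be told apart.

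In Klf5 siRNA embryos the mean summed level of these genes was higher than in scramble embryos (3153 ± 1289 against 1745 ± 633 CPM, SD, n = 6 and 10), with overlap. Summed over all members, Klf5 siRNA embryos ranged from 1718 to 4761 CPM (median 3075) and scramble embryos from 460 to 2459 CPM (median 1920), and the groups overlap. Without Hist1h2ap the sums ran from 345 to 1076 CPM (median 643) in Klf5 siRNA embryos and from 90.2 to 357 CPM (median 259) in scramble embryos. H2b summed to 107 to 655 CPM (median 176) in Klf5 siRNA embryos, against 19.5 to 73.0 CPM (median 38.6) in scramble embryos, the one class with no overlap. Hist1h2bc alone made up 80.3 to 592 CPM of the H2b sums with Klf5 siRNA and 10.5 to 45.5 CPM with scramble siRNA. The class was not summed without Hist1h2bc, so the separation is not shown for its other members. H4 had medians of 140 and 63.1 CPM, H3 of 32.8 and 18.5 CPM and H1 of 22.0 and 14.7 CPM, Klf5 siRNA embryos first.

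In the gene-by-gene fit 49 members passed the filter and 15 did not, of which 5 were H2a, 5 H2b, 3 H4, 1 H3 and 1 H1. 8 rose and 0 fell at an adjusted p below 0.05 (edgeR quasi-likelihood test over 12385 genes), where 12.0% of all tested genes rose and 7.74% fell. At an unadjusted p below 0.05, 19 of 49 members were higher, where 18.5% of all tested genes were, and 0 were lower; DESeq2 and limma voom called 0 lower. Fitted log2 folds were above 0 for 48 of 49 members, with a median of 1.27, where 49.8% of all tested genes were above 0 and their median was -0.0065. With no filter, 58 of all 64 members were above 0, with a median of 1.22. Every Klf5 siRNA embryo lay above every scramble embryo in CPM for 1 member, Hist1h2bc, where 2.31% of all tested genes did so.

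Hist1h2bc, an H2b gene, ranged from 80.3 to 592 CPM (median 146) in Klf5 siRNA embryos, against 10.5 to 45.5 CPM (median 21.0) in scramble embryos. Every Klf5 siRNA embryo exceeded every scramble embryo. Its fitted level rose 10.6-fold (log2 fold 3.40 ± 0.43 SE, edgeR adjusted p = 5.25e-05), and in every alternative run it stayed past the threshold, with adjusted p up to 0.0131. The highest value, in Klf5 siRNA embryo 2, was 592 CPM and took 31.5% of that embryo's member counts; without that embryo the fitted rise was 6.77-fold (log2 fold 2.76).

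Hist1h2bc is transcribed away from Hist1h2ac, an H2a gene, and their starts lie 251 bases apart. The 239 bases between their RefSeq starts are shown because Hist1h2bc had the highest fold of the 49 members tested; capitals mark, in order, TATAAA on the minus strand, CCAAT on the minus strand, CCAAT, the octamer ATTTGCAT known to bind Oct1, and CCAAT.
Hist1h2ac and Hist1h2bc, chr13:23683960-23684198, plus strand: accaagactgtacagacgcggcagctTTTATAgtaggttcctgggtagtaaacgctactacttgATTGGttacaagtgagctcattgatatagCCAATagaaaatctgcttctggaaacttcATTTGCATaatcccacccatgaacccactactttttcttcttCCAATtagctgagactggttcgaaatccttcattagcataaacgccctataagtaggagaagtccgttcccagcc
The sequence is from RefSeq (GRCm38.p6). Hist1h2ac had a log2 fold of 1.27 ± 0.89 SE in embryos (edgeR adjusted p = 0.338), against 3.40 for Hist1h2bc. In ESCs the values were -1.19 ± 0.56 SE (edgeR adjusted p = 0.251) for Hist1h2ac and -0.30 for Hist1h2bc. The difference between the 2 genes was not tested, and Hist1h2ac is named as the partner of Hist1h2bc after its values were seen.

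Promoter windows (250 bases before to 50 after the start) were found for 59 members, which had 60 windows. Searched on both strands, with overlaps counted once per window, ATTTGCAT was held by 7 of 18 H2a and 5 of 14 H2b windows, by 0 of 6 H1, 0 of 10 H3 and 0 of 12 H4 windows, and by 1.74% of all 32851 windows. CCAAT was in all H1, H2a, H2b and H3 windows and in 25% of the H4 windows, against 37.4% of all, and TATAAA in 40 to 66.7% of the windows of a class, against 13.6% of all. Windows of an H2a and an H2b gene that start close together on opposite strands overlap, so the same site can count in both classes. The H2a and H2b counts are therefore not independent. These matches are descriptions of the letters.

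12 pairs of members start within 500 bases of each other on opposite strands, all of them an H2a with an H2b gene. With no filter, both genes of a pair had folds below 0 in 9 of 12 pairs in ESCs. Both had folds above 0 in 9 of 12 pairs in embryos. Of all 64 members, 58 were below 0 in ESCs and 58 above 0 in embryos. The pair counts therefore do not show that partners changed together. The pair of Hist1h2ae and Hist1h2bg, 176 bases apart, had log2 folds of 1.43 and 1.12 in embryos and of -0.12 and -0.33 in ESCs.

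In the H2a class 4 members rose in embryos. Hist1h2ae ranged from 85.5 to 242 CPM (median 203) in Klf5 siRNA embryos, against 20.3 to 126 CPM (median 68.6) in scramble embryos. 4 of 6 Klf5 siRNA embryos exceeded every scramble embryo, and the fitted level rose 2.87-fold (log2 fold 1.52 ± 0.36 SE, edgeR adjusted p = 0.00586). Hist3h2a, an H2a gene on chromosome 11 with a poly(A) signal, ranged from 3.48 to 52.2 CPM (median 6.70) in Klf5 siRNA embryos, against 1.15 to 8.74 CPM (median 3.94) in scramble embryos. 2 of 6 exceeded every scramble embryo, those at 52.2 and 28.9 CPM, and the fitted level rose 3.86-fold (edgeR adjusted p = 0.0205). Those are embryos 2 and 5: without embryo 2 the fitted fold was 2.15 (edgeR adjusted p = 0.159), and without embryo 5 3.19 (edgeR adjusted p = 0.0588), and with limma voom the call was also lost (adjusted p = 0.155).

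Hist2h2aa1, whose words are all shared with other genes, ranged from 3.39 to 13.4 CPM (median 5.74) with Klf5 siRNA, against 0.339 to 5.90 CPM (median 2.41) with scramble siRNA, 3.21-fold higher (edgeR adjusted p = 0.0304). The fourth, Hist1h2ai, was named after its values were seen: 2.51 to 9.14 CPM (median 6.31) in Klf5 siRNA embryos, against 0.645 to 5.60 CPM (median 1.58) in scramble embryos, 2.85-fold higher (edgeR adjusted p = 0.0384). In both genes the groups overlap. Hist1h2ai had 7.99% of its 31-base words to itself and shared 84.85% with Hist1h2ad. Its call was lost with no filter, with the length offset and in most runs with a library left out.

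Hist1h2ap, which carries most of the embryo counts, did not pass. It ranged from 806.5 to 3851 CPM (median 2484) in Klf5 siRNA embryos and from 370 to 2102 CPM (median 1649) in scramble embryos. 3 of 6 Klf5 siRNA embryos exceeded every scramble embryo, while embryos 2, 3 and 4 lay within the scramble range (log2 fold 0.79 ± 0.35 SE, edgeR adjusted p = 0.122), and its fold was -0.15 with an offset for transcript length. Hist1h2ag ranged from 12.1 to 40.6 CPM (median 21.5) in Klf5 siRNA embryos and from 7.38 to 28.6 CPM (median 16.7) in scramble embryos (edgeR adjusted p = 0.181), and its fold also turned, to -0.20, with that offset.

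Among H4 genes, 2 rose in embryos. Hist1h4i ranged from 9.78 to 56.9 CPM (median 13.7) in Klf5 siRNA embryos, against 1.40 to 12.4 CPM (median 5.07) in scramble embryos. 4 of 6 exceeded every scramble embryo, and the fitted level rose 3.79-fold (log2 fold 1.92 ± 0.47 SE, edgeR adjusted p = 0.00766); without embryo 2, the highest, the fitted fold was 2.36 (edgeR adjusted p = 0.0541). Hist1h4h ranged from 1.27 to 8.35 CPM (median 3.10) with Klf5 siRNA, against 0.0542 to 2.52 CPM (median 0.668) with scramble siRNA, and the fitted level rose 4.95-fold (edgeR adjusted p = 0.0239). Hist1h4d, the H4 gene with the most counts in embryos, ranged from 17.7 to 115 CPM (median 84.4) with Klf5 siRNA and from 6.24 to 58.6 CPM (median 41.1) with scramble siRNA (log2 fold 1.18 ± 0.47 SE, edgeR adjusted p = 0.0808).

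The H4 genes that fell in ESCs were low in embryos. Hist1h4m was not tested there, at 0 to 3.83 CPM in Klf5 siRNA embryos and 0 to 0.801 CPM in scramble embryos, and Hist1h4j and Hist1h4n did not pass (edgeR adjusted p = 0.255 and 0.0939). A count of 3, taken as the limit below which a gene cannot be told from 0, stood at 0.120 to 0.204 CPM of unscaled depth in the embryos.

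In H3, Hist1h3g was the member that rose. It ranged from 1.27 to 11.3 CPM (median 4.51) in Klf5 siRNA embryos, against 0.240 to 5.02 CPM (median 1.45) in scramble embryos, and 2 of 6 exceeded every scramble embryo. The fitted level rose 3.87-fold (log2 fold 1.95 ± 0.58 SE, edgeR adjusted p = 0.0231). Hist2h3b, the H3 gene with the highest level per length in embryos, ranged from 1.79 to 14.5 CPM (median 4.67) with Klf5 siRNA and from 0.129 to 6.00 CPM (median 1.97) with scramble siRNA (edgeR adjusted p = 0.149).

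H1 had the lowest class median in embryos. The 5 tested had log2 folds between -0.11 and 0.69 (median 0.50) and none passed, against class medians of 1.27 in H2a, 1.54 in H2b, 1.24 in H3 and 1.67 in H4; differences between classes were not tested. Hist1h1e, with the smallest p, ranged from 1.23 to 11.6 CPM (median 4.89) in Klf5 siRNA embryos and from 1.73 to 9.93 CPM (median 2.38) in scramble embryos (log2 fold 0.69 ± 0.50 SE, edgeR adjusted p = 0.357). Hist1h1c ranged from 2.599 to 13.6 CPM (median 5.48) with Klf5 siRNA and from 2.11 to 12.4 CPM (median 4.27) with scramble siRNA (log2 fold 0.50 ± 0.48 SE, edgeR adjusted p = 0.496). Both genes overlap almost fully between the groups. Hist1h1b ranged from 2.13 to 15.8 CPM with Klf5 siRNA and from 0.758 to 16.2 CPM with scramble siRNA (edgeR adjusted p = 0.504).

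**Figure D3:**
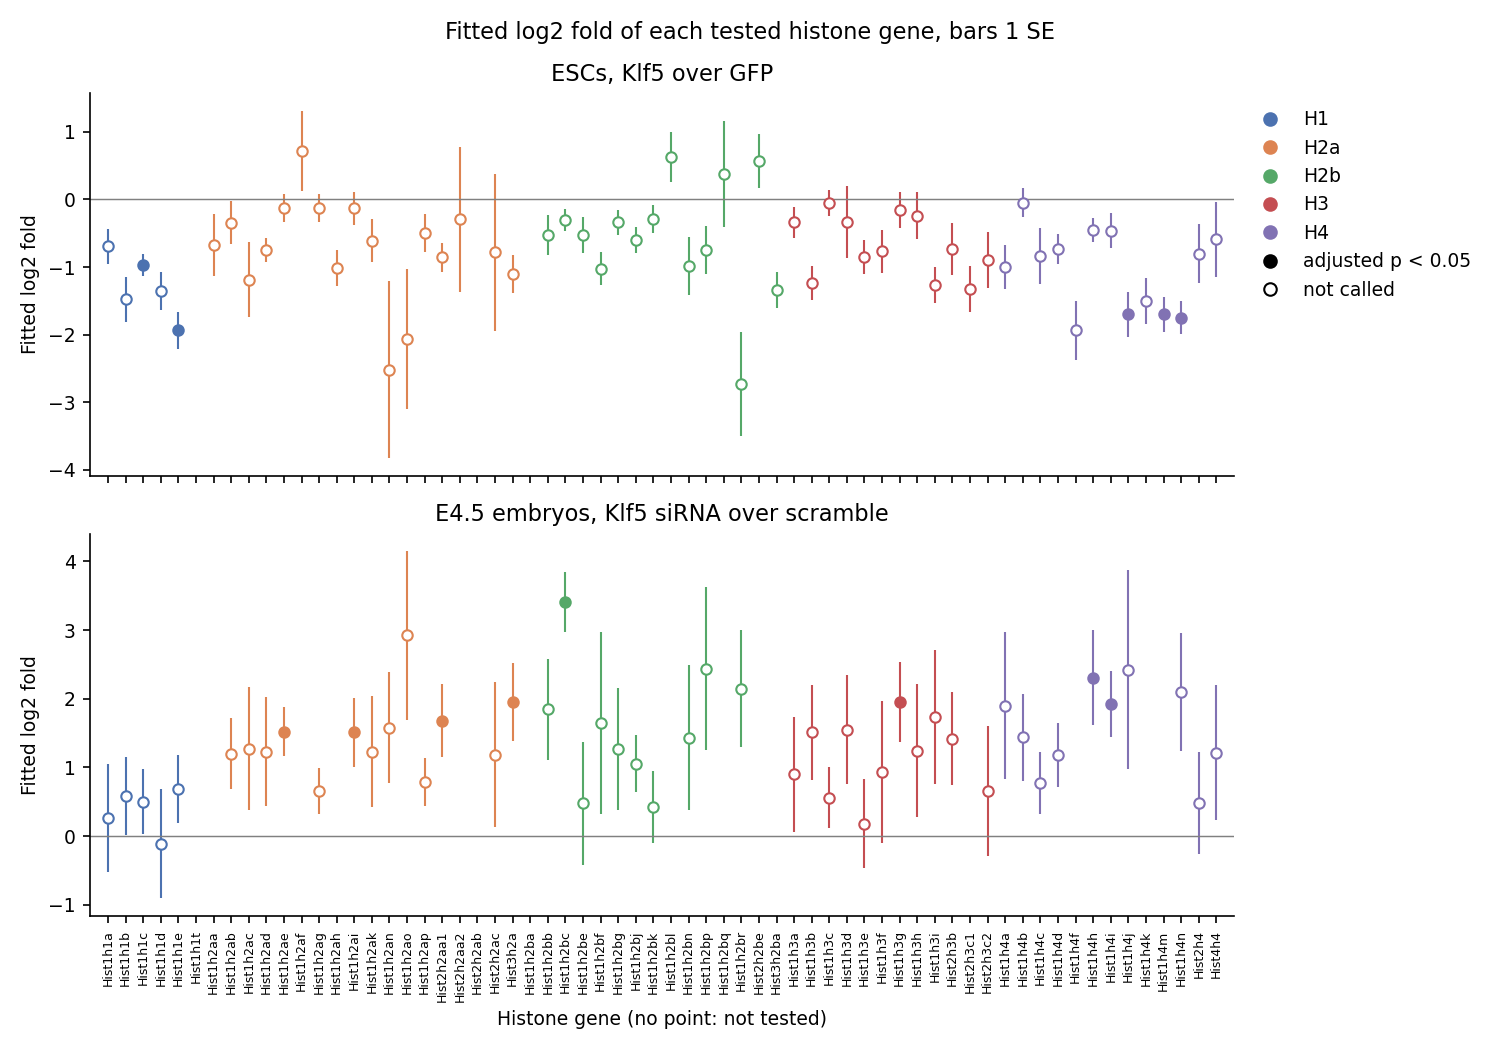
Fitted log2 fold of each tested histone gene with 1 SE, Klf5 over GFP in ESCs (top) and Klf5 siRNA over scramble in embryos (bottom), coloured by class; filled points passed an adjusted p of 0.05. In ESCs 57 of 61 points lie below 0 with 5 filled, and in embryos 48 of 49 lie above 0 with 8 filled.

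**Figure D4:**
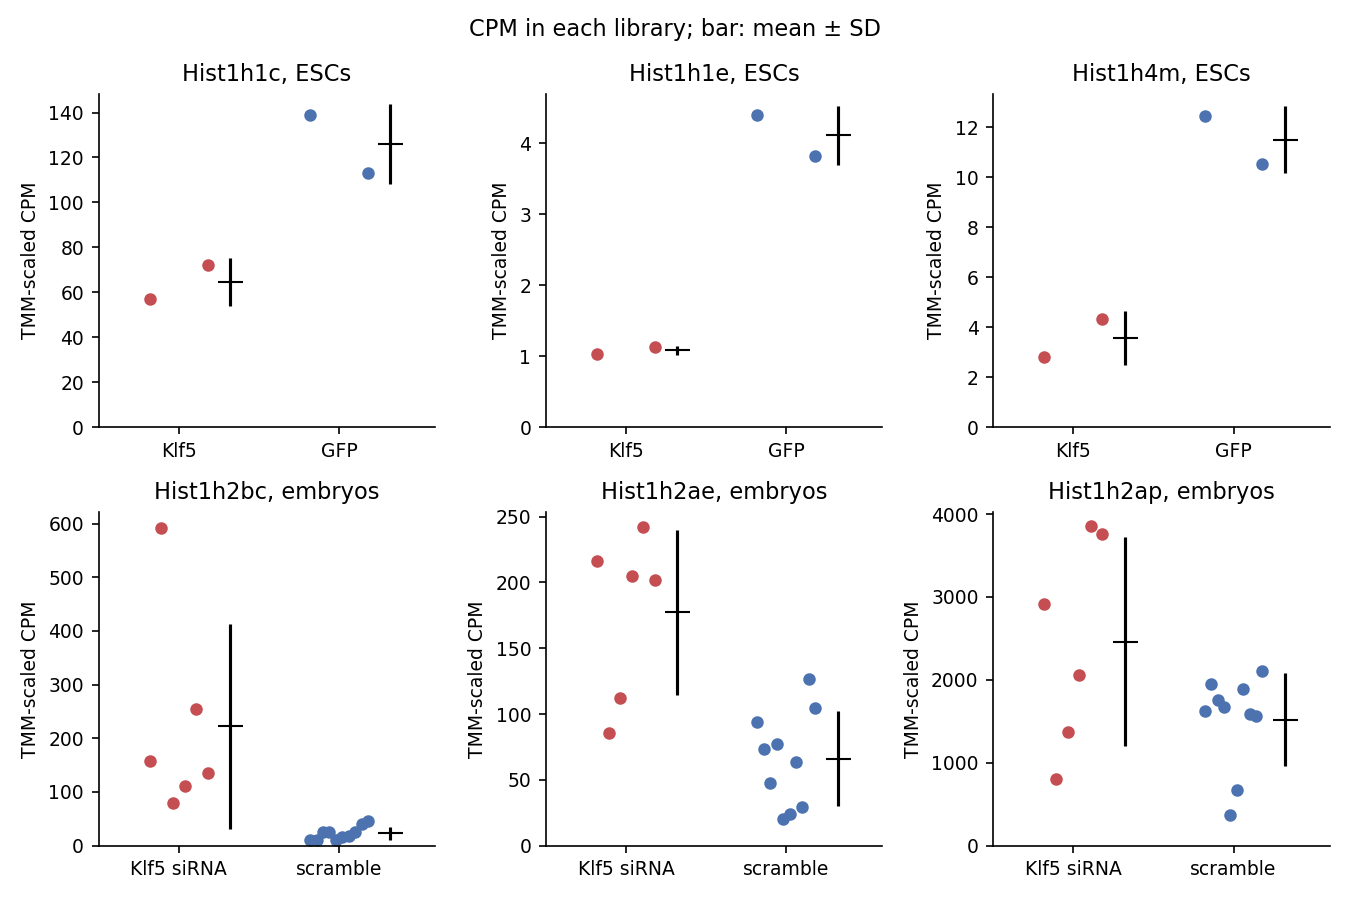
TMM-scaled CPM in each library, points, with the mean and SD beside each group, for 3 members that fell in ESCs (top) and 3 members in embryos (bottom). Hist1h2bc separates all 6 Klf5 siRNA embryos (80.3 to 592 CPM) from all 10 scramble embryos (10.5 to 45.5 CPM), while Hist1h2ap overlaps.

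Transcript length moved with the embryo comparison. Over all tested genes, the median log2 fold was 0.84 in the shortest length decile (up to 821 bases) and -0.33 in the longest. Of the 49 tested members, 34 fell in that shortest decile, and the median length of the 49 was 586 bases. With an offset for each library's length trend the members' median log2 fold was 0.64 and 41 of 49 were above 0, and 3 of 49 members rose in place of 8, where 11.2% of all tested genes rose: Hist1h2bc (log2 fold 3.39), Hist1h4i (1.39) and Hist3h2a (2.13). In ESCs the shortest decile had a median of -0.14, and with the offset the members' median was -0.63 with 5 called lower, where 1.31% of all tested genes were.

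**Figure D5:**
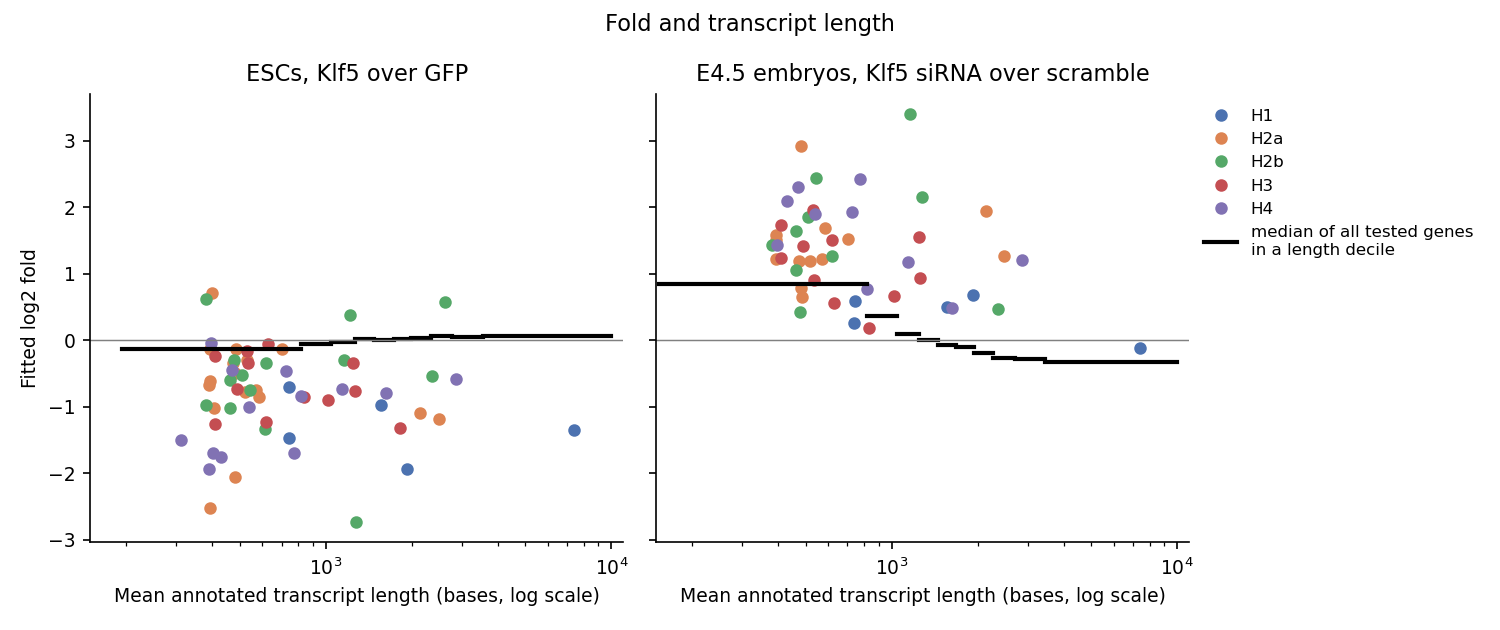
Fitted log2 fold of each tested histone gene against mean annotated transcript length on a log axis, with black lines for the median fold of all tested genes in each length decile (the last decile is drawn to 10 kb). In embryos the shortest decile sits at 0.84 and the longest at -0.33, while Hist1h2bc stands at 3.40.

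Single embryos decided several calls. Without Klf5 siRNA embryo 2, Hist1h2ae and Hist1h2bc alone rose, and without embryo 5, Hist1h2ae, Hist1h2bc and Hist1h4i did, where 10.4% and 10.2% of all tested genes rose. Without the library labelled Klf5 siRNA 1, 9 members rose, including all 8, where 11.0% of all tested genes rose. Without scramble embryos 5 and 6, whose member sums were the lowest, 4 members rose, Hist1h2ae, Hist1h2bc, Hist1h4i and Hist3h2a, where 12.8% of all tested genes rose. In the main fit 12.0% of all tested genes rose and 7.74% fell. Trophectoderm markers were lower in Klf5 siRNA embryos there, 6 of 8 past the threshold. Their summed levels were 166 to 2310 CPM, against 2218 to 8526 CPM in scramble embryos. Of the primitive endoderm markers 2 of 8 fell (175 to 489 against 332 to 602 CPM), and of the epiblast markers 1 rose and 1 fell of 8 (275 to 557 against 260 to 664 CPM). Of 12 fibroblast markers the 1 tested rose, with sums of 1.33 to 21.8 against 0.271 to 2.88 CPM and Lum at 0 in every embryo. Their part in the result, and that of the mitochondrial share, was not tested beyond a fit with that share as a covariate. In that fit 9 members rose, where 9.93% of all tested genes did, and the members' median log2 fold was 1.88. 7 of the 8 were among them, while Hist1h4h was not (adjusted p = 0.0580), and Hist1h2bj and Hist1h4d were added.

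Genes that work with these histones were given from lists fixed by function. For comparison, 1.67% of all tested genes rose and 1.11% fell in ESCs. Replication-independent variants, most of them made from ordinary polyadenylated messages, did not follow one direction. In ESCs 2 of 11 tested rose, both macroH2A genes. H2afy2 had 50.6 and 44.3 CPM in Klf5 ESCs, against 21.0 and 26.1 CPM in GFP ESCs (log2 fold 1.00 ± 0.15 SE, edgeR adjusted p = 0.0325). H2afy had 288 and 251 CPM in Klf5 ESCs, against 153 and 177 CPM in GFP ESCs (log2 fold 0.69 ± 0.13 SE, edgeR adjusted p = 0.0417).

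In embryos 3 of 11 variants rose and 1 fell, where 12.0% of all tested genes rose and 7.74% fell. H2afj ranged from 316 to 667 CPM (median 547) with Klf5 siRNA, against 108 to 409 CPM (median 254) with scramble siRNA (2.22-fold higher, edgeR adjusted p = 0.00206). H2afv, a variant of the H2A.Z type, ranged from 376 to 901 CPM (median 532), against 202 to 434 CPM (median 245) with scramble siRNA (2.24-fold higher, edgeR adjusted p = 0.00216). H3f3a, an H3.3 gene, ranged from 569 to 1011 CPM (median 657), against 296 to 540 CPM (median 436) with scramble siRNA, with no overlap (1.89-fold higher, edgeR adjusted p = 0.00370). The fall was in H2afy, which is also among the genes that rose in ESCs: 22.4 to 179 CPM (median 97.6) with Klf5 siRNA, against 154 to 398 CPM (median 206) with scramble siRNA (2.18-fold lower, edgeR adjusted p = 0.0210).

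Of the genes that make or degrade histone message ends, 0 of 18 passed in ESCs; Eri1, an exonuclease that trims histone ends, had the smallest p, with 15.4 and 13.7 CPM in Klf5 ESCs and 6.93 and 9.62 CPM in GFP ESCs (log2 fold 0.79 ± 0.21 SE, edgeR adjusted p = 0.0827). In embryos 2 of 16 fell, both general cleavage and polyadenylation factors, where 7.74% of all tested genes fell. Fip1l1 ranged from 8.48 to 16.3 CPM with Klf5 siRNA, against 17.0 to 29.0 CPM with scramble siRNA (1.83-fold lower, edgeR adjusted p = 0.0138). Cstf2 ranged from 10.4 to 22.2 CPM, against 21.0 to 44.8 CPM with scramble siRNA (1.75-fold lower, edgeR adjusted p = 0.0361). The groups did not overlap for Fip1l1.

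Among histone chaperones and acetyltransferases, 0 of 19 passed in ESCs, where Hat1 had 103 and 85.3 CPM in Klf5 ESCs and 126 and 154 CPM in GFP ESCs (log2 fold -0.59 ± 0.14 SE, edgeR adjusted p = 0.0735). In embryos 2 of 19 rose and 1 fell, where 12.0% of all tested genes rose and 7.74% fell. Hat1, which acetylates newly made H4, ranged from 686 to 2538 CPM (median 1306) with Klf5 siRNA, against 226 to 652 CPM (median 367) with scramble siRNA (3.83-fold higher, edgeR adjusted p = 3.00e-04). Asf1a, which carries new H3 and H4, ranged from 89.9 to 265 CPM (median 131), against 18.01 to 78.1 CPM (median 40.3) with scramble siRNA (3.46-fold higher, edgeR adjusted p = 2.97e-04). In both genes every Klf5 siRNA embryo exceeded every scramble embryo. Ssrp1, a subunit of the FACT chaperone, fell, with 24.2 to 70.9 CPM against 77.5 to 129 CPM in scramble embryos (2.18-fold lower, edgeR adjusted p = 0.00288).

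S-phase genes were also measured, since S phase is when these histones are made. In ESCs 0 of 14 passed, and the smallest p was that of Cdc25a, with 107 and 104 CPM in Klf5 ESCs and 118 and 130 CPM in GFP ESCs (edgeR adjusted p = 0.224). In embryos 5 of 14 fell and 1 rose, with a median log2 fold of -0.80, where 7.74% of all tested genes fell and 12.0% rose. Mcm2, a subunit of the replicative helicase, ranged from 31.7 to 54.2 CPM (median 42.1) with Klf5 siRNA, against 69.7 to 109 CPM (median 85.0) with scramble siRNA (1.97-fold lower, edgeR adjusted p = 0.00217). Cdt1, which loads that helicase, ranged from 22.0 to 42.5 CPM (median 31.7), against 56.5 to 94.7 CPM (median 69.2) with scramble siRNA (2.09-fold lower, edgeR adjusted p = 0.00233). The rise was in Ccne2, cyclin E2, at 10.5 to 45.0 CPM (median 19.0), against 4.38 to 15.1 CPM (median 7.27) with scramble siRNA (2.90-fold higher, edgeR adjusted p = 0.00530).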

How the data were processed

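Each value is the expected count (estimated count) of a gene, unnormalized as the authors deposited it. Per the submitters' processing notes the tool was kallisto 0.46 and the genome build mm10; the annotation release and the step from transcripts to genes are not given in the sources used here. They were rounded to whole numbers, filtered (filterByExpr, lowest count 10), scaled by TMM and tested with edgeR 4.0.16 (robust quasi-likelihood, R 4.3.3), ESCs (2 against 2) and embryos (6 against 10) separately, adjusted over all genes by Benjamini and Hochberg at 0.05. Libraries held 14.7 to 37.5 counts in units of 1e6; floors (3 counts) cover counting error only. No 2 libraries of a group agreed within sampling noise. The fits were tested on simulated data. Alternatives used DESeq2 1.42.0, limma 3.58.1 voom, other scalings and filters, a length offset (lowess span 0.3), left-out libraries, a replicate block and a mitochondrial covariate.

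Members and lists were chosen with earlier results of these data known. Per class the text names the 2 members with the highest level per length in each experiment, up to 3 past the threshold by p or the 1 with the smallest p, and likewise up to 3 or 1 per function list, plus Klf5; marker lists are given by counts and sums. Symbols, ends and 31-base words came from GENCODE M21.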

Additional observations from a re-analysis of the deposited data

Results flagged for a closer look

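In 64 groups of embryo values (named members and class sums, in 6 Klf5 siRNA and 10 scramble embryos), 16 held a lowest or highest embryo that stood apart by Dixon's 95% criterion. Chance gives this in about 1 of 20 groups only where values are normally distributed and groups independent. These CPM were not log-transformed and class sums contain the members, so the 16 cannot be set against that rate. Klf5 siRNA embryo 2 was the one apart in 6 of them, with 592.4 CPM of Hist1h2bc (the next embryo had 255.4), 10.28 of Hist1h3b, 56.9 of Hist1h4i, 4.656 of Hist1h4n, 14.29 of Hist3h2ba and 655.2 summed over H2b. Klf5 siRNA embryo 1 stood apart with 3.64 CPM of Hist1h1a, and embryo 5 with 14.51 CPM of Hist2h3b. Among scramble embryos, embryo 9 stood apart in H1, with 16.23 CPM of Hist1h1b, 9.928 of Hist1h1e and 36.05 summed over the class. Embryo 2 had 9.2 CPM of Hist1h2bk and 5.018 of Hist1h3g, embryo 7 had 3.895 of Hist1h4j, embryo 6 had 0.801 of Hist1h4m and embryo 10 had 1.104 of Hist1h4n. All 16 were the highest of their group.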

How the results depend on the processing

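In ESCs, where 5 members fell, the count was 15 with DESeq2 and 13 with no filter. Over all tested genes, 178 of 15968, 680 of 15968 and 343 of 21724 were called lower, in that order. No sign was seen that the replicate numbers pair the samples (correlation of deviations -0.11 in ESCs, -0.11 to 0.11 in embryos). With 2 ESC libraries per group the deviations mirror each other, so the ESC value cannot show that samples were unpaired. As a replicate block the numbers gave 3 ESC calls and, crossed (chosen after seeing the data), 14. Over all 15968 genes, 52 and 677 were called lower in these fits. In embryos 8 members rose (1489 of 12385 genes over all, given likewise below). The count was 4 with a filter at 5 CPM (10 members tested, 1405 of 8582) and 3 with the length offset (1375 of 12292). It was 3 with the replicate block (622 of 11632) and 3 in the same 12 libraries without it (949 of 11632). Without Klf5 siRNA embryos 2 and 4 it was 3 (1166 of 13090). Without scramble embryos 5 and 6 (chosen after seeing the data) it was 4 (1536 of 12002). With each library left out it was 2 to 9 (1306 to 1521 genes). No alternative called a member in the other direction. The log2 ratio of summed levels was -0.66 in ESCs (-0.86 to -0.49 with a library left out) and 0.85 in embryos (0.70 to 0.98).

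Signs were compared between settings only for the genes named by rule, and turned only in a comparison where the gene had not passed. Unnamed members could turn too. With the length offset 9 of 61 members were above 0 in ESCs, against 4 in the main fit. In embryos 8 of 49 were below 0 with it, against 1 in the main fit. With the length offset the log2 fold was 0.056 for Hist1h2ag, 0.064 for Hist1h3c and 0.0094 for Hist1h3g in ESCs, and in embryos -0.37 for Hist1h1a, -0.033 for Hist1h1b, -0.20 for Hist1h2ag, -0.15 for Hist1h2ap, -0.36 for Hist1h2bk, -0.22 for Hist1h3c and -0.16 for Hist1h3h. With a mitochondrial covariate it was -0.13 for Hist1h1b and with limma voom -0.13 for Hist1h3h in embryos. With a library left out, the folds ran from -0.37 to 0.18 for Hist1h2ag, -0.24 to 0.17 for Hist1h3c, -0.33 to 0.057 for Hist1h3g and -0.68 to 0.41 for Hist1h3h in ESCs, and from -0.47 to 0.59 for Hist1h1a in embryos. Apart from fewer genes or samples tested, the cause was not tested. Scramble libraries all carry lower library numbers than Klf5 siRNA ones, an order that cannot be told apart from the treatment. Near copies and low counts limit single members, and poly(A) capture limits what any member's level says of its total message.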
